A study of Mus musculus with 4 samples.

Results

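Transcripts of 10 genes that hold or release the brake on the cell cycle were described in mouse colonic organoids: 5 inhibitors of cyclin-dependent kinases (Cdkn1a, Cdkn1b, Cdkn1c, Cdkn2a and Cdkn2b), the 3 D cyclins (Ccnd1, Ccnd2 and Ccnd3), Myc and Mdm2. They were chosen by name, and all 10 were found among the 30360 genes measured. The organoids were grown in a gel from the distal colon of 16-week-old wildtype or Tnfr2-/- mice. The cultures held mesenchymal cells beside epithelial ones. The Tnfr2-/- mice lack TNF receptor 2 in the whole body (allele Tnfrsf1b tm1Mwm, on a B6.129S2 background, against C57BL/6 wildtype). Some cultures received 20 ng/ml of tumor necrosis factor (TNF) from day 1 to day 6 after passage 5, and all were dissociated on day 7 and depleted of apoptotic cells before 10x 3′ single-cell libraries were made. There was 1 library per group (wildtype cultures without and with TNF, then Tnfr2-/- cultures without and with it), so no difference has a replicate check and no test between groups was made. Values below follow this order of groups.

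The 4 libraries held 6155 cells, of which 1623 were in the deposited class Progenitor.1 and 1284 in Progenitor.2. Per library there were 95 to 647 Progenitor.1 cells and 62 to 716 Progenitor.2 cells. Mesenchymal cells were unevenly shared: the class Mesenchyme-Ifitm1 held 892, 0, 1 and 0 cells, Mesenchyme-generic 393, 1, 51 and 0, and Mesenchyme-Ptges 34, 304, 37 and 122. These were out of 2589, 1469, 1117 and 980 cells in the libraries. The part of this difference in the comparisons between groups was not tested. The median Progenitor.1 cell held 42680 to 46629 UMIs (unique molecular identifiers, each a counted RNA molecule). The median Progenitor.2 cell held 15574.5 UMIs in the wildtype untreated library and 33685 to 39167 in the other 3. Markers of cycling cells (8 genes such as Mki67 and Top2a) summed to 930.5 to 1405 CPM (counts scaled to 1e6 UMIs) in Progenitor.1 and 45.3 to 107 CPM in Progenitor.2, with Ccnb1 at 0 in the wildtype untreated Progenitor.2 cells. All 5 epithelial markers were present in both classes, and the 6 mesenchymal markers summed to at most 8.99 CPM, with Pdgfra, Col3a1 or Acta2 at 0 in 7 of the 8 sums. Of the deleted gene, Tnfrsf1b, epithelial cells held 4.17, 12.1, 1.82 and 6.89 CPM, so it was lower in each Tnfr2-/- library than in its wildtype counterpart but not absent, and in untreated Progenitor.2 it was higher (5.15 against 1.19 CPM, the latter from 2 UMIs). Where the Tnfrsf1b reads lie relative to the deleted stretch was not tested. Xist, the transcript of the inactive X, was at 522 to 830.1 CPM in the wildtype progenitor classes and at most 0.303 CPM in the Tnfr2-/- ones. Y-linked Ddx3y was at 74.9 and 70.0 CPM in mesenchyme of the Tnfr2-/- libraries and at most 0.0296 CPM in their progenitor classes. Wildtype progenitors held it beside Xist, at 1.85 CPM in untreated and 9.69 CPM in TNF Progenitor.1, so the wildtype libraries differed in it too. The mouse or culture of origin cannot be told apart from genotype, and its part in the wildtype TNF comparison was not tested. A total of 3 barcodes occurred in more than 1 library, and they marked 6 cells.

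As background, D cyclins join CDK4 and CDK6 and start the phosphorylation of RB that lets E2F factors open the way into S phase. Inhibitors of the INK4 family (p16INK4a from Cdkn2a, p15INK4b from Cdkn2b) bind those kinases themselves, whereas the Cip/Kip family (p21 from Cdkn1a, p27 from Cdkn1b, p57 from Cdkn1c) bind cyclin and kinase together, above all CDK2 complexes. Myc drives growth and represses several inhibitors, while Mdm2 marks p53 for destruction and is itself a p53 target, as is Cdkn1a. In the colon, stem and progenitor cells at the crypt base divide under Wnt signals, and cells leave the cycle as they differentiate.

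Cdkn2a and Cdkn2b are neighbours on the minus strand of mouse chromosome 4 (GRCm38), at 89274471 to 89294653 and 89306299 to 89311039. Both coding transcripts of Cdkn2a end in the same last exon, so 3′ counts cannot separate p16INK4a from Arf, the p53 activator made from the upstream start. Cdkn1a lies on chromosome 17 at 29090976 to 29100727. Genes on the opposite strand overlap Cdkn1a, Cdkn1c, Ccnd1, Ccnd2 and Ccnd3, and none overlaps the other 5 members. The 250 bases before each start of these 3 inhibitor genes are printed because all 3 were higher in Progenitor.2. They come from RefSeq (GRCm38.p6) and read 5′ to 3′ on the gene's strand, and capitals mark matches to the GC box GGGCGG or, in the upstream Cdkn1a window, to a p53 decamer, 1 arm of its binding element.
Cdkn2a, upstream start (Arf), chr4:89294620-89294869, minus strand: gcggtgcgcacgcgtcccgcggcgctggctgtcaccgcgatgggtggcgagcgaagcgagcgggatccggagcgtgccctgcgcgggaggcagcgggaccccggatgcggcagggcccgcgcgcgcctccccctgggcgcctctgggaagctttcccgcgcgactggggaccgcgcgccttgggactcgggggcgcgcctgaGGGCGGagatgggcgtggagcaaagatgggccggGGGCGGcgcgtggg
Cdkn2a, downstream start (p16INK4a), chr4:89282193-89282442, minus strand: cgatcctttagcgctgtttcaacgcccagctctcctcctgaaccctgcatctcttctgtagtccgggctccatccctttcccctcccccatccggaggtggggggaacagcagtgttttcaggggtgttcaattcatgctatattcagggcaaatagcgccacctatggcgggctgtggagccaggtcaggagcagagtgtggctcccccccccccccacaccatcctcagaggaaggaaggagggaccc
Cdkn2b, chr4:89311033-89311282, minus strand: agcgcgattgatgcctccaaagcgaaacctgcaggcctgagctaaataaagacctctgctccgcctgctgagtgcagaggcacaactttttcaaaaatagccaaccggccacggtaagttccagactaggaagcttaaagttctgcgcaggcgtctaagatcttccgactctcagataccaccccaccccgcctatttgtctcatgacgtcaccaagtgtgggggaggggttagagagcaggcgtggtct
Cdkn1a, upstream start, chr17:29090729-29090978, plus strand: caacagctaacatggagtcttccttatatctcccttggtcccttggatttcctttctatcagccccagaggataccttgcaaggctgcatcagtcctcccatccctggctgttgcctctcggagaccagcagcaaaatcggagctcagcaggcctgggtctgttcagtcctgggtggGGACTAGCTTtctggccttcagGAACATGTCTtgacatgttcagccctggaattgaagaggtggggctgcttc
Cdkn1a, downstream start, chr17:29093519-29093768, plus strand: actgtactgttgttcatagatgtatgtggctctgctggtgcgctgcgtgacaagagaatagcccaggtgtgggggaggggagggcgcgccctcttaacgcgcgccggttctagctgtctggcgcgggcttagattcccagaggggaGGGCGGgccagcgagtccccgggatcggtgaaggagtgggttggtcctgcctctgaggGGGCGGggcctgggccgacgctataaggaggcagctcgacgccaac

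The windows differ in base composition. The window before the Arf start was 78.4% G or C with 40 CpG pairs, against 60.0% and 7 before the p16INK4a start and 53.6% and 12 before Cdkn2b. The median over all 32851 promoter windows of this length was 52.4% and 6 CpG pairs. GGGCGG on either strand occurred 2 times in the Arf window, 2 times in the downstream Cdkn1a window and not in the other 3, and 32.7% of all windows hold it. The p53 decamer occurred 2 times in the upstream Cdkn1a window and in none of the other 4, and 7.13% of all windows hold it. The Myc E-box CACGTG, which 6.02% of all windows hold, was in none of the 5. Windows were found for 6 of the 10 genes.

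Across the progenitor classes, 4 of the 5 inhibitors were higher in non-cycling Progenitor.2 than in cycling Progenitor.1 in all 4 libraries. A gene was counted as higher or lower where log2(CPM + 1) differed by at least 2-fold one way in every library, with at least 5 CPM in 1 of the classes. By this rule 4 of 10 members were higher (Cdkn1a, Cdkn1c, Cdkn2a and Cdkn2b), against 5.78% of the 9150 genes that reached the minimum, and 0 of 10 were lower, against 9.02%. At any size, 5 of 10 were higher in all 4 libraries, against 30.7% of genes, and 3 of 10 were lower, against 43.5%. The classes were made by clustering these same cells on their expression, so the differences describe the classes and were not tested. Intervals in brackets below are exact 95% Poisson intervals, or intervals of a ratio of counts, and cover counting error only.

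**Figure D1:**
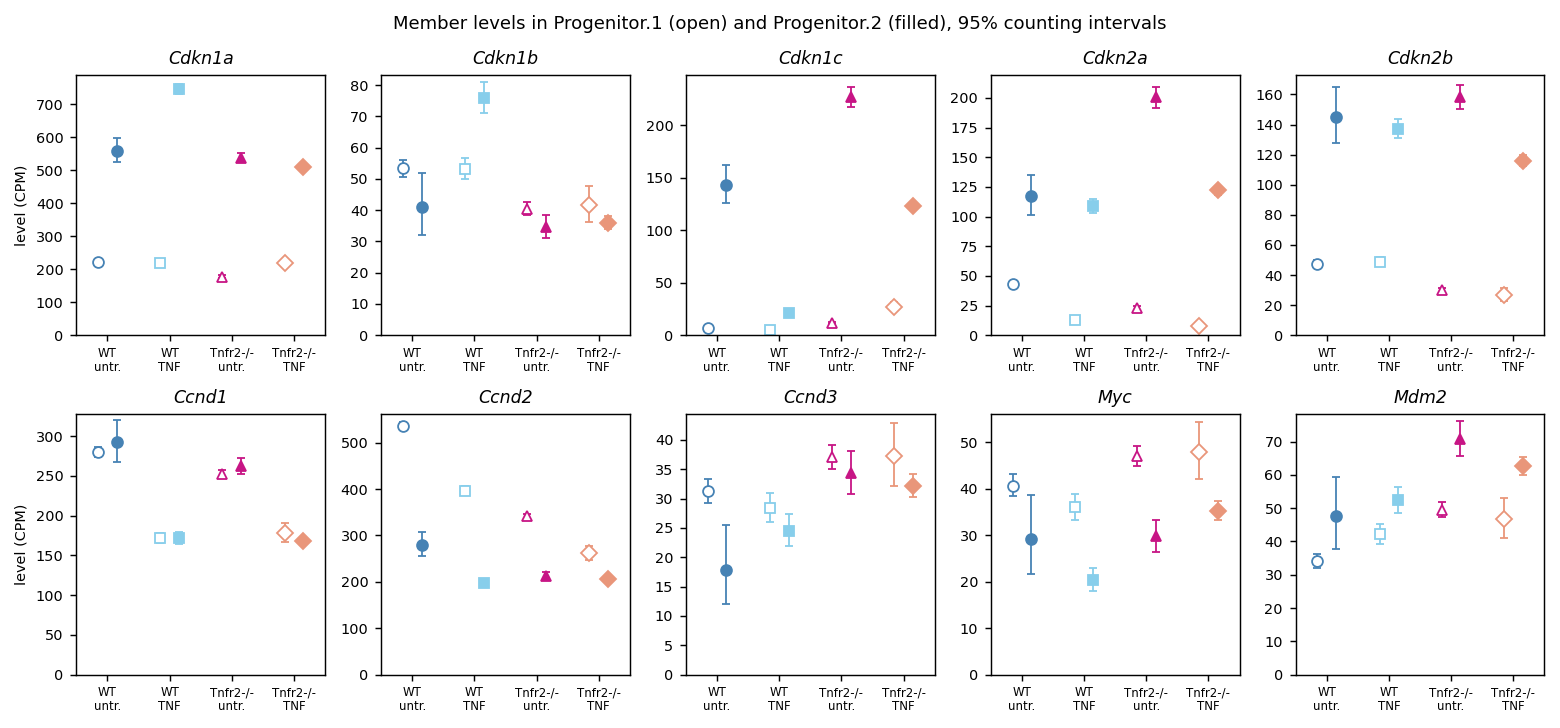
Level of each member in CPM (linear axis from 0) in Progenitor.1 (open symbols) and Progenitor.2 (filled symbols) in the 4 libraries, with WT for wildtype, untr. for untreated and bars for 95% Poisson intervals of the count. Cdkn1a, Cdkn1c, Cdkn2a and Cdkn2b sit higher in Progenitor.2 in every library, the intervals of Ccnd1 overlap between the classes, and Ccnd2 and Myc sit lower in Progenitor.2.

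Cdkn1a (p21, the Cip/Kip inhibitor that p53 and other stress signals induce) was at 220.5, 217, 178 and 218 CPM in Progenitor.1. In Progenitor.2 it was at 559, 745, 538 and 510.1 CPM, so the classes did not overlap. The difference was 2.53-, 3.42-, 3.01- and 2.34-fold on the log2(CPM + 1) scale (log2 1.34 [1.24 to 1.44], 1.77 [1.72 to 1.83], 1.59 [1.55 to 1.65] and 1.22 [1.14 to 1.32]). Thinned to 5000 UMIs per cell, which sets all cells to 1 depth, 52.0%, 51.6%, 48.4% and 51.1% of Progenitor.1 cells and 75.0%, 82.6%, 73.8% and 78.2% of Progenitor.2 cells held a Cdkn1a UMI. Without thinning the shares were 88.3%, 92.2%, 86.2% and 88.4% against 85.5%, 97.1%, 94.4% and 97.5%. The transcript was broad in both classes, and at equal depth more Progenitor.2 cells held it.

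Cdkn1c (p57, the imprinted Cip/Kip inhibitor) had the widest class difference in 2 of the 4 libraries. It was low in Progenitor.1, at 6.44, 5.15, 11.9 and 26.9 CPM, and at 143, 20.8, 227 and 123 CPM in Progenitor.2. These are 19.3-, 3.55-, 17.7- and 4.46-fold differences (log2 4.27 [4.19 to 4.76], 1.83 [1.67 to 2.37], 4.15 [4.11 to 4.41] and 2.16 [1.95 to 2.45]). The wildtype TNF library stood apart from the other 3, with the lowest Progenitor.2 level. Share of cells with a UMI at 5000 UMIs was 2.38%, 1.49%, 4.50% and 7.45% in Progenitor.1 and 21.4%, 6.30%, 31.6% and 23.5% in Progenitor.2. In the mesenchymal class Mesenchyme-Ptges, where Cdkn1c was at 1.20 to 5.84 CPM, 0 of 120 to 1 of 24 cells held one.

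Cdkn2a (p16INK4a and Arf) was at 43.5, 12.5, 23.0 and 7.80 CPM in Progenitor.1 and at 117, 109, 200.5 and 122 CPM in Progenitor.2. The differences were 2.66-, 8.11-, 8.40- and 14.0-fold (log2 1.41 [1.21 to 1.65], 3.02 [2.92 to 3.33], 3.07 [3.01 to 3.24] and 3.81 [3.52 to 4.46]). At 5000 UMIs, 13.0% [10.3 to 16.1], 4.78% [2.75 to 7.64], 7.45% [5.55 to 9.76] and 4.26% [1.17 to 10.5] of Progenitor.1 cells and 14.3% [6.38 to 26.2], 10.7% [7.31 to 15.1], 24.4% [19.0 to 30.6] and 21.5% [18.6 to 24.8] of Progenitor.2 cells held a Cdkn2a UMI (exact 95% binomial intervals), and the intervals of the classes overlapped in both wildtype libraries. Without thinning the shares were 37.2%, 23.0%, 36.5% and 23.2% against 25.8%, 20.9%, 42.5% and 36.5%, lower in Progenitor.2 in both wildtype libraries. Mesenchymal cells held more of it, 263 to 461 CPM over all mesenchymal classes. Mesenchymal markers in the progenitor classes were at 0.0272% to 0.0680% of their level in mesenchyme, and RNA carried over at that rate would amount to 0.0885 to 0.299 CPM of Cdkn2a. These are averages over a class, whereas Cdkn2a was held by few cells. The part of mesenchymal RNA or cells in its level was not tested. Weighting every cell alike in place of summing UMIs left the wildtype untreated difference at 0.38 on the log2 scale and so below 2-fold, and the other 3 at 2.38, 2.75 and 3.18.

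Cdkn2b (p15INK4b, known as a TGF-beta target) was at 47.1, 48.8, 29.8 and 26.7 CPM in Progenitor.1 and at 145, 137, 158 and 116 CPM in Progenitor.2. The differences were 3.04-, 2.77-, 5.16- and 4.22-fold (log2 1.60 [1.42 to 1.82], 1.47 [1.37 to 1.61], 2.37 [2.29 to 2.52] and 2.08 [1.87 to 2.37]). At 5000 UMIs, 18.3%, 20.3%, 11.8% and 5.32% of Progenitor.1 cells and 30.4%, 42.6%, 41.3% and 36.1% of Progenitor.2 cells held a UMI.

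Cdkn1b (p27, the Cip/Kip inhibitor controlled largely through protein turnover) did not follow the other 4 inhibitors. It was at 53.4, 53.3, 40.4 and 41.7 CPM in Progenitor.1 and at 41.1, 75.9, 34.6 and 36.0 CPM in Progenitor.2. Only the wildtype TNF library was higher in Progenitor.2, by 0.50 [0.38 to 0.64] on the log2 scale. The other 3 differences were -0.37 [-0.75 to -0.03], -0.22 [-0.40 to -0.05] and -0.21 [-0.42 to 0.00], and the last changed sign when scaled by TMM factors.

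Among the D cyclins, Ccnd1, which mitogens and Wnt signals induce, was summed over each class at almost the same level: 279.8, 172, 253 and 178 CPM in Progenitor.1 and 293, 172, 262 and 168 CPM in Progenitor.2. The log2 differences were 0.07 [-0.07 to 0.20], 0.00 [-0.08 to 0.08], 0.05 [-0.01 to 0.12] and -0.08 [-0.18 to 0.02], and each interval spans 0. Weighting every cell alike in place of summing UMIs, Ccnd1 was lower in Progenitor.2 in all 4 libraries (log2 -0.66, -0.53, -0.18 and -0.36). The summed level split the libraries by treatment and not by class, with both untreated libraries above both TNF libraries in each class.

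Ccnd2 was lower in Progenitor.2 in all 4 libraries without reaching 2-fold. It was at 536, 397, 341 and 262 CPM in Progenitor.1 and at 279.9, 199, 212 and 205 CPM in Progenitor.2, with log2 differences of -0.93 [-1.07 to -0.80], -0.99 [-1.06 to -0.93], -0.68 [-0.75 to -0.62] and -0.35 [-0.44 to -0.27]. The share of cells with a UMI at 5000 UMIs was 77.1%, 75.2%, 64.4% and 51.1% in Progenitor.1 and 39.3%, 41.5%, 36.0% and 37.7% in Progenitor.2. Ccnd3 was at 31.3, 28.4, 37.1 and 37.2 CPM in Progenitor.1 and at 17.9, 24.5, 34.3 and 32.2 CPM in Progenitor.2. Its difference was clear of 0 in the wildtype untreated library (log2 -0.77 [-1.38 to -0.28], from 30 UMIs in Progenitor.2) and between -0.20 and -0.11 in the other 3, and its sign in the Tnfr2-/- TNF library changed with TMM factors.

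Myc, the growth-driving transcription factor, was at 40.7, 36.0, 47.0 and 48.0 CPM in Progenitor.1 and at 29.2, 20.4, 29.8 and 35.2 CPM in Progenitor.2. It was lower in all 4 libraries (log2 -0.47 [-0.92 to -0.07], -0.79 [-1.03 to -0.61], -0.64 [-0.84 to -0.48] and -0.43 [-0.64 to -0.24]), and no interval reached 0. Mdm2, the ubiquitin ligase of p53, moved the other way. It was at 34.1, 42.1, 49.6 and 46.8 CPM in Progenitor.1 and at 47.6, 52.3, 70.7 and 62.7 CPM in Progenitor.2 (log2 0.47 [0.13 to 0.81], 0.31 [0.16 to 0.47], 0.50 [0.39 to 0.64] and 0.42 [0.23 to 0.62]). All 4 differences were under 2-fold. Over all genes that reached the minimum, the median log2 difference was -0.11, -0.16, -0.09 and -0.19, so a small difference here can turn with the scaling.

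The equal Ccnd1 sums came from unequal cells, as a look at the spread over cells, chosen after the values were seen, showed. The highest 10% of Progenitor.2 cells by Ccnd1 CPM held 71.1%, 66.2%, 50.1% and 47.8% of the class's Ccnd1 UMIs, against 49.1%, 33.6%, 32.4% and 28.0% for Progenitor.1. The median Progenitor.2 cell was at 0, 22.5, 61.0 and 65.8 CPM of Ccnd1, against 123, 107, 169 and 133 CPM in Progenitor.1. Fewer Progenitor.2 cells held a Ccnd1 UMI at 5000 UMIs (26.8%, 26.7%, 41.3% and 35.1% against 48.2%, 44.5%, 56.1% and 42.6%) and without thinning (40.3%, 54.6%, 67.4% and 69.6% against 90.8%, 90.1%, 93.0% and 84.2%). With the highest 10% of cells left out of both classes, Ccnd1 was lower in Progenitor.2 in all 4 libraries (log2 -0.58, -0.87, -0.35 and -0.46). These cells were picked by the value itself, so this describes the shape of the distribution and is no second estimate.

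**Figure D2:**
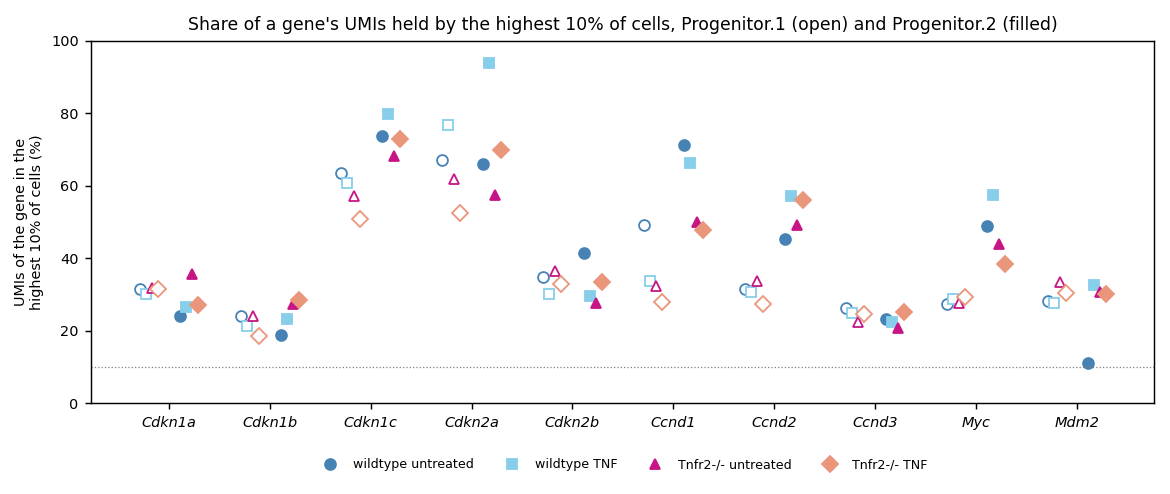
Percent of each member's UMIs that the highest 10% of cells hold (vertical axis, 0 to 100%), with 1 symbol per library. Symbols are open for Progenitor.1 and filled for Progenitor.2, and the dotted line marks 10%, the share of cells. Low counts alone raise the percent above this line, so a value above it does not by itself show uneven expression. For example, thinning alone moved Ccnd3 in wildtype untreated Progenitor.1 from 26.2% to 76.9%. Cdkn2a and Cdkn1c are the most concentrated members in Progenitor.2 in 3 of the 4 libraries, up to 93.8% for Cdkn2a in the wildtype TNF library, and at full depth, as plotted, Ccnd1, Ccnd2 and Myc are more concentrated in Progenitor.2 than in Progenitor.1.

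Cdkn2a was held by few cells. The median cell was at 0 CPM in both classes of every library, and in wildtype TNF 27 of 273 Progenitor.2 cells held 93.8% of the UMIs. The other 3 libraries gave 66.0%, 57.4% and 70.0% in Progenitor.2, and Progenitor.1 gave 67.1%, 76.9%, 62.0% and 52.5%. Low counts alone raise such percents, and their part in these values was not tested. Without the highest 10% of cells, Progenitor.2 was at 48.6, 7.77, 96.5 and 41.8 CPM against 16.0, 3.20, 9.66 and 3.96 CPM, still higher in all 4 libraries (log2 1.54, 1.06, 3.19 and 3.11). Cdkn1c without its highest cells was at 39.9, 4.52, 78.3 and 36.8 CPM in Progenitor.2 against 2.57, 2.21, 5.55 and 14.4 CPM, and the wildtype TNF difference (log2 0.78) no longer reached 2-fold.

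By contrast, Cdkn1a and Cdkn2b were spread over more cells. The highest 10% held 24.0% to 35.8% of Cdkn1a and 27.6% to 41.4% of Cdkn2b in Progenitor.2, and without them the log2 differences between the classes stayed between 1.28 and 2.51. The median Progenitor.2 cell was at 352, 540.1, 335 and 385 CPM of Cdkn1a and at 46.4, 102, 90.4 and 68.1 CPM of Cdkn2b. Without thinning, the highest 10% of Progenitor.2 cells held 49.0%, 57.5%, 44.1% and 38.4% of the Myc UMIs, against 27.5%, 28.9%, 27.8% and 29.3% in Progenitor.1. Thinned to 5000 UMIs, they held 100%, 100%, 80% and 67.4% against 58.4%, 62.7%, 61.4% and 75%, so the order was reversed in Tnfr2-/- TNF. In wildtype Progenitor.2 only 5 and 22 thinned cells held a Myc UMI, under 10% of cells, which sets the share at 100%. At 5000 UMIs the share of cells with a Myc UMI was 19.6%, 17.6%, 19.1% and 12.8% in Progenitor.1 and 8.93%, 8.15%, 12.9% and 16.3% in Progenitor.2, so it was lower in Progenitor.2 in 3 libraries and higher in Tnfr2-/- TNF, where 12 Progenitor.1 cells held one.

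The Progenitor.2 cells with a Cdkn2a UMI at 5000 UMIs, a split chosen after the values were seen, also held more Cdkn2b. They numbered 8 of 56, 29 of 270, 55 of 225 and 153 of 710, and the 3 larger sets were compared with the rest of their class on all their UMIs. Cdkn2b was at 265, 239 and 225 CPM in them and at 114, 112 and 78.6 CPM in the rest (log2 1.21 [1.07 to 1.37], 1.08 [0.95 to 1.24] and 1.51 [1.43 to 1.61]). Ccnd1 was higher in them too, at 531, 346 and 203 CPM against 106, 216 and 157 CPM, as were Mdm2 (106, 94.6 and 78.2 against 42.5, 57.1 and 57.5 CPM) and Cdkn1a (892, 674 and 655 against 719, 463 and 461 CPM). Cdkn1b was lower (30.6, 28.8 and 30.4 against 84.1, 37.7 and 37.7 CPM), and Cdkn1c was lower as well (13.8, 145 and 109.9 against 21.9, 272 and 128 CPM).

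The same cells carried few markers of mature colon cells. Absorptive markers (Car1, Aqp8, Slc26a3, Krt20 and Ly6g) summed to 551, 28.8 and 71.6 CPM in cells with a Cdkn2a UMI and to 2517, 1427 and 865 CPM in the rest. Goblet and deep secretory markers summed to 25.5, 11.0 and 316 CPM against 1330.1, 142 and 3281 CPM. Epithelial markers were no lower (16966, 13375 and 12933 against 15356, 11554 and 9623 CPM). Cycling markers were lower, at 62.8, 74.3 and 66.7 against 86.0, 103 and 121 CPM. Mesenchymal markers were at 8.17, 2.54 and 15.8 CPM against 9.14, 7.57 and 2.83 CPM, so in the Tnfr2-/- TNF library they were higher in the cells with Cdkn2a, and their part in the result was not tested.

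**Figure D3:**
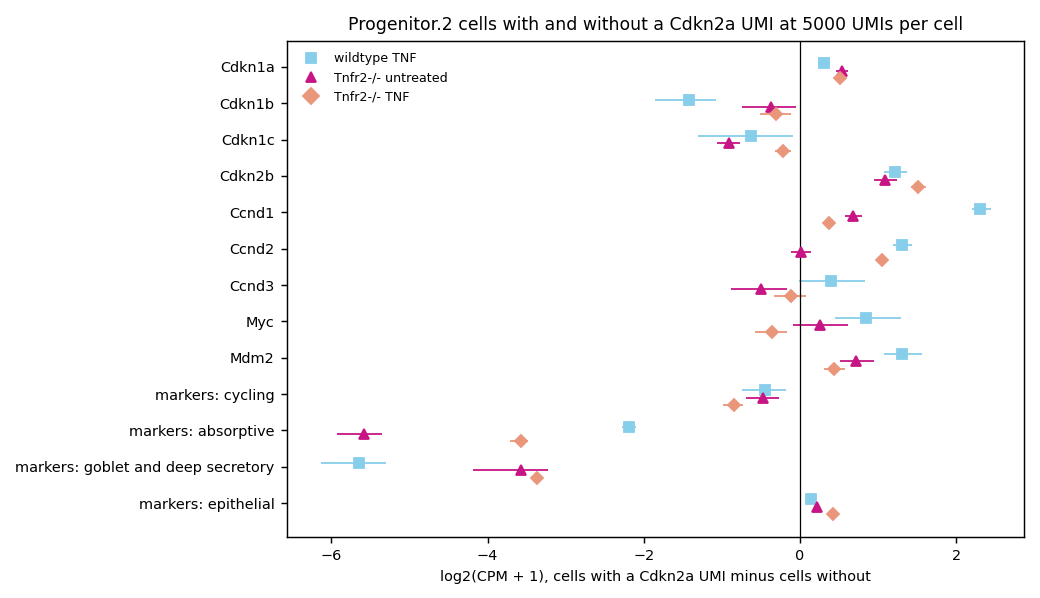
Difference in log2(CPM + 1) between Progenitor.2 cells with and without a Cdkn2a UMI at 5000 UMIs per cell (horizontal axis), for the other 9 members and 4 marker lists, in the 3 libraries with at least 20 cells on each side, with bars for 95% counting intervals. Cdkn2b, Cdkn1a, Ccnd1 and Mdm2 lie to the right of 0 in all 3 libraries, and Cdkn1b, Cdkn1c and the absorptive and secretory marker lists lie to the left.

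The same split could be made in Progenitor.1 of 2 libraries. In wildtype untreated Progenitor.1, the 71 cells with a Cdkn2a UMI held 767 CPM of Ccnd1 against 203 CPM in the other 475, and 93.2 against 39.8 CPM of Cdkn2b. In Tnfr2-/- untreated, 48 cells against 596 held 323 against 247 CPM of Ccnd1 and 50.7 against 28.2 CPM of Cdkn2b. In the same order of libraries, Cdkn1a was at 370.0 and 246 CPM against 197 and 173 CPM, and Mdm2 at 55.6 and 60.8 CPM against 30.7 and 48.7 CPM. Cdkn1b was at 37.6 and 36.8 CPM against 55.9 and 40.6 CPM, and Cdkn1c at 5.03 and 6.58 CPM against 6.66 and 12.3 CPM. Cycling markers were lower in the cells with Cdkn2a (620.0 and 853 against 979.6 and 1182 CPM), and absorptive markers were lower in wildtype and higher in Tnfr2-/- (232 and 224 against 480.0 and 136 CPM). Fewer than 20 cells held a Cdkn2a UMI in the Progenitor.1 class of each TNF library. For comparison, at the same depth 1 of 72, 1 of 106 and 0 of 62 cells of the class Secretory-Reg4-Spdef-Lyz1 held a Cdkn2a UMI in the first 3 libraries, the last of which allows a share of up to 4.84% (3 cells of the total). This limits cells with a UMI at this depth, not cells that express the gene. Those classes had median depths of 34057, 48833 and 33766 UMIs.

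Within Progenitor.1, the members were also split by Mki67, a gene of actively dividing cells. At 5000 UMIs, 175 of 546, 127 of 335, 223 of 644 and 35 of 94 cells held an Mki67 UMI. Ccnd2 was lower in cells with Mki67 in all 4 libraries, at 322, 233, 206 and 114 CPM against 619, 471, 391 and 281 CPM (log2 -0.94 [-1.13 to -0.75], -1.01 [-1.29 to -0.75], -0.92 [-1.14 to -0.71] and -1.29 [-2.08 to -0.58]). Ccnd1 was lower as well, at 152, 129, 159.6 and 143 CPM against 285, 181, 271 and 156 CPM, and in the Tnfr2-/- TNF library the interval spanned 0 (log2 -0.13 [-0.89 to 0.61]). Cdkn1b was the opposite, at 56.0, 70.9, 58.3 and 62.9 CPM against 37.7, 51.0, 34.7 and 44.1 CPM, with intervals that excluded 0 in the 2 untreated libraries (log2 0.56 [0.01 to 1.12] and 0.73 [0.24 to 1.25]). In wildtype untreated, 3 other inhibitors were lower in the cells with Mki67: Cdkn2b by log2 -1.20 [-2.01 to -0.53], Cdkn2a by -0.99 [-1.78 to -0.32] and Cdkn1a by -0.30 [-0.58 to -0.03]. In the other 3 libraries the intervals of these 3 genes spanned 0. No member differed by at least 2-fold one way in all 4 libraries, and the same was found with Top2a in place of Mki67. The share over all genes was not counted for these splits. In Progenitor.2 only 0, 7, 5 and 12 cells held Mki67 at this depth, and no split was made.

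Over the other classes, each member had its own order. Levels are given per class sum of at least 20 cells in a library, and the wildtype untreated library is used where a class was large enough only there. Cdkn1a in that library was highest in Mesenchyme-proliferative (815 CPM) and Mesenchyme-generic (795 CPM), whose intervals overlapped, followed by Absorptive (735 CPM) and then Progenitor.2. It was lowest in Progenitor.3, at 110.4 CPM, a class of shallow cells with a median of 7137 UMIs. Cdkn2b was highest in Progenitor.2, followed by Absorptive (103 CPM), Mesenchyme-Ptges (96.3 CPM) and Mesenchyme-generic (90.4 CPM). Neighbours in the order of these last 3 classes had overlapping intervals. Cdkn2b was lowest in Enteroendocrine cells (12.2 CPM).

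Cdkn1c in wildtype untreated followed Progenitor.2 (143 CPM) with Absorptive (113 CPM) and Enteroendocrine cells (93.0 CPM), the last pair with overlapping intervals. In wildtype TNF the order was reversed, with Enteroendocrine cells at 122 CPM and Progenitor.2 at 20.8 CPM, and in Tnfr2-/- TNF they were at 34.9 and 123 CPM. Cdkn1b was highest in Enteroendocrine cells in each of the 3 libraries with enough of them, at 194, 119.5 and 191 CPM, with no other class of those libraries above 78.0 CPM. These hormone-secreting cells numbered 33, 31 and 27. Cdkn2a was at 409, 421, 476 and 461 CPM in Mesenchyme-Ptges, the highest class in 3 libraries, and in wildtype untreated it was highest in Mesenchyme-generic (567 CPM). The intervals of Mesenchyme-proliferative (116 CPM, wildtype untreated) and Mesenchyme-generic of Tnfr2-/- untreated (233 CPM) overlapped that of Progenitor.2 in the same library (117 and 200.5 CPM). In the epithelium it was at 2.09 to 3.56 CPM in Secretory-Reg4-Spdef-Lyz1 cells, 7.66 CPM in Absorptive cells and 7.62 to 12.6 CPM in Enteroendocrine cells. The class Secretory-Reg4-Ang4, found in wildtype TNF alone as 246 cells with a median of 1957.5 UMIs, held 33.4 CPM of Cdkn2a.

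Ccnd3 was at 123, 73.0, 115 and 41.5 CPM over the mesenchymal classes against 28.2, 27.8, 36.5 and 32.8 CPM over the epithelial ones, and in Tnfr2-/- TNF, Mesenchyme-Ptges (41.5 CPM) overlapped Progenitor.1 (37.2 CPM). Ccnd1 was lowest in Enteroendocrine cells (7.62, 54.0 and 22.6 CPM), and in mesenchyme it ranged from 62.9 CPM in Mesenchyme-generic to 615 CPM in Mesenchyme-Ptges of the wildtype TNF library. Ccnd2 in wildtype untreated was highest in Progenitor.1 (536 CPM) and Absorptive cells (514 CPM), higher there than in Progenitor.2 (279.9 CPM). Myc ranked first in Progenitor.1 in all 4 libraries, at 36.0 to 48.0 CPM. Its interval there was clear of the interval of the next class only in Tnfr2-/- TNF. The next class was Progenitor.2 in wildtype untreated (29.2 CPM), Secretory-Reg4-Ang4 in wildtype TNF (25.5 CPM) and Progenitor.3 in Tnfr2-/- untreated (39.6 CPM). For Progenitor.2 in wildtype untreated, the ratio interval given above nonetheless put Myc below its level in Progenitor.1. In wildtype untreated, Myc was at 2.90 to 6.35 CPM in the mesenchymal classes. Mdm2 was above its epithelial level in mesenchyme of every library, at 63.7, 120.1, 81.3 and 213 CPM against 31.9, 44.2, 53.2 and 60.4 CPM.

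**Figure D4:**
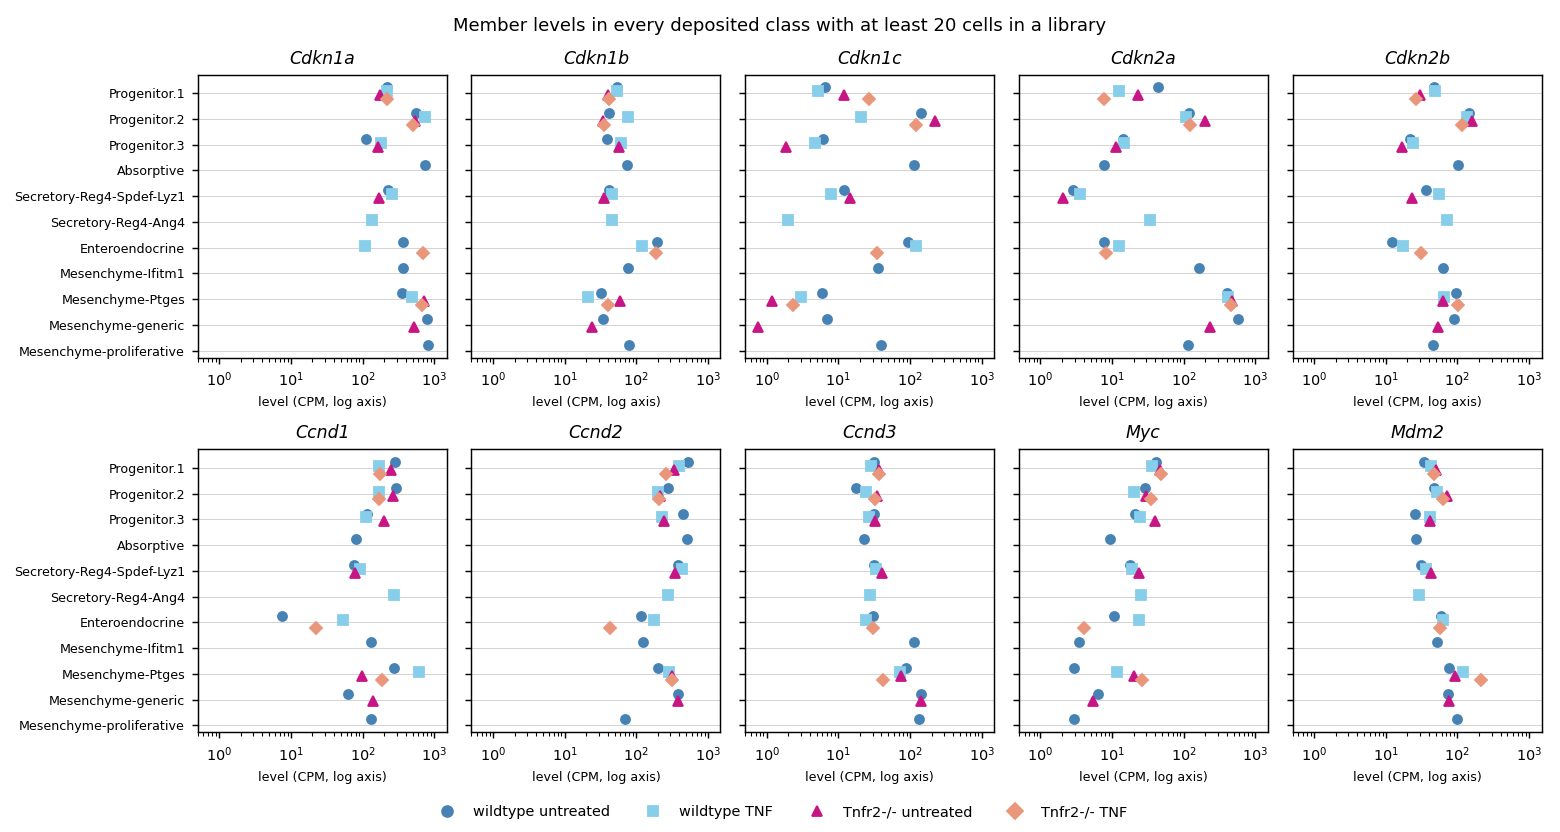
Level of each member in CPM (logarithmic axis) in every deposited class (rows) with at least 20 cells in a library, with 1 symbol per library. Cdkn2a is above every epithelial class in Mesenchyme-Ptges of each library, Cdkn1b is high in Enteroendocrine cells and Cdkn1c in Progenitor.2, Absorptive and Enteroendocrine cells, with the wildtype TNF library low in Progenitor.2.

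The genotypes were then compared within each class, which keeps the numbers of cells per class out of the values. In Progenitor.1 no member was at least 2-fold higher in Tnfr2-/- in both the untreated and the TNF pair (0 of 10, against 0.505% of 9301 genes) or lower (0 of 10, against 1.02%). In Progenitor.2 the counts were 0 of 10 higher, against 1.72% of 8952 genes, and 0 of 10 lower, against 1.99%. At any size in both pairs, 4 of 10 were higher (against 37.7% of genes) and 4 lower (against 30.8%) in Progenitor.1, and 5 of 10 were higher (against 37.5%) and 3 lower (against 31.4%) in Progenitor.2. These shares are near those over all genes, and the values that follow are a description.

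Cdkn1c was higher in Tnfr2-/- in all 4 pairs: by 0.79 [0.63 to 1.14] and 2.18 [2.00 to 2.78] on the log2 scale in Progenitor.1, and by 0.66 [0.47 to 0.87] and 2.51 [2.39 to 2.75] in Progenitor.2, untreated pair first. In Progenitor.1 both INK4 genes and Ccnd2 were lower: Cdkn2b by log2 -0.64 [-0.78 to -0.54] and -0.85 [-1.14 to -0.61], Cdkn2a by -0.89 [-1.05 to -0.79] and -0.62 [-1.21 to -0.20], and Ccnd2 by -0.65 [-0.69 to -0.62] and -0.60 [-0.68 to -0.51]. In Progenitor.2 Cdkn2a went the other way, by 0.77 [0.56 to 0.99] and 0.17 [0.08 to 0.26], while Cdkn2b (0.12 and -0.24) and Ccnd2 (-0.40 and 0.05) had no common direction. Cdkn1b was lower in all 4 pairs (-0.39, -0.35, -0.24 and -1.06), with an interval that spanned 0 in the untreated Progenitor.2 pair. Ccnd3 and Mdm2 were higher in all 4 pairs, by 0.24 to 0.90 and by 0.15 to 0.56, and the Mdm2 interval in the Progenitor.1 TNF pair spanned 0. Each pair sets a culture of one mouse line against a culture of another, so genotype, mouse and culture cannot be told apart.

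TNF was compared with no treatment within each genotype. In Progenitor.1, 1 of 10 members was at least 2-fold lower with TNF in both genotypes, against 0.326% of 9199 genes, and 0 of 10 were higher, against 0.38%. The 1 was Cdkn2a, which went from 43.5 to 12.5 CPM in wildtype (log2 -1.72 [-2.00 to -1.59]) and from 23.0 to 7.80 CPM, the latter from 40 UMIs, in Tnfr2-/- (log2 -1.45 [-2.05 to -1.10]). In the Tnfr2-/- pair the difference was -0.95 when every cell was weighted alike and -0.89 with a pseudocount of 10 CPM, and so under 2-fold. In Progenitor.2, 0 of 10 were higher, against 0.556% of 8810 genes, and 0 of 10 were lower, against 0.556%. At any size in both genotypes, 0 of 10 were higher with TNF (against 35.5% of genes) and 3 lower (against 28.3%) in Progenitor.1, and 1 of 10 was higher (against 24%) and 5 lower (against 40.1%) in Progenitor.2. In Progenitor.2 Cdkn2a differed by -0.11 [-0.32 to 0.11] in wildtype and -0.71 [-0.79 to -0.64] in Tnfr2-/-. With every cell weighted alike these were 0.41 and -0.52. Without the highest 10% of cells, picked by the value itself, they were -2.50 and -1.19. The wildtype value thus turned on how few cells were counted, which its interval does not cover.

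Ccnd1 was lower with TNF in both classes and both genotypes, by less than 2-fold each time. The log2 differences were -0.70 [-0.77 to -0.65] and -0.50 [-0.60 to -0.41] in Progenitor.1 and -0.77 [-0.91 to -0.63] and -0.64 [-0.71 to -0.57] in Progenitor.2, wildtype first. The median of all genes for these 4 pairs was 0.07, -0.02, 0.00 and -0.12. In the same order, Ccnd2 was lower by -0.43, -0.38, -0.49 and -0.05, and the last changed sign under both other scalings. Cdkn1c in Progenitor.2 was lower with TNF, 143 against 20.8 CPM in wildtype (log2 -2.72 [-3.04 to -2.52]) and 227 against 123 CPM in Tnfr2-/- (log2 -0.87 [-0.95 to -0.80]). In Progenitor.1 the Tnfr2-/- pair ran the opposite way, 11.9 against 26.9 CPM.

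The summed dissociation stress genes (Fos, Jun and 4 others), known to respond to tissue handling, were at 953, 1627, 1535 and 879.7 CPM in Progenitor.1 and at 1297, 2734, 1554 and 1446 CPM in Progenitor.2. They were highest in the wildtype TNF library in both classes, which was also the library highest in Progenitor.2 Cdkn1a and Cdkn1b and lowest in Cdkn1c. Absorptive markers in Progenitor.2 were at 4440, 2211 (wildtype), 928 and 663 CPM (Tnfr2-/-), so they were lower in Tnfr2-/- and, within each genotype, lower with TNF. A class sum cannot tell other cells in the class from another level in the same cells. The part of the stress genes or the absorptive markers in the members' values was not tested.

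**Figure D5:**
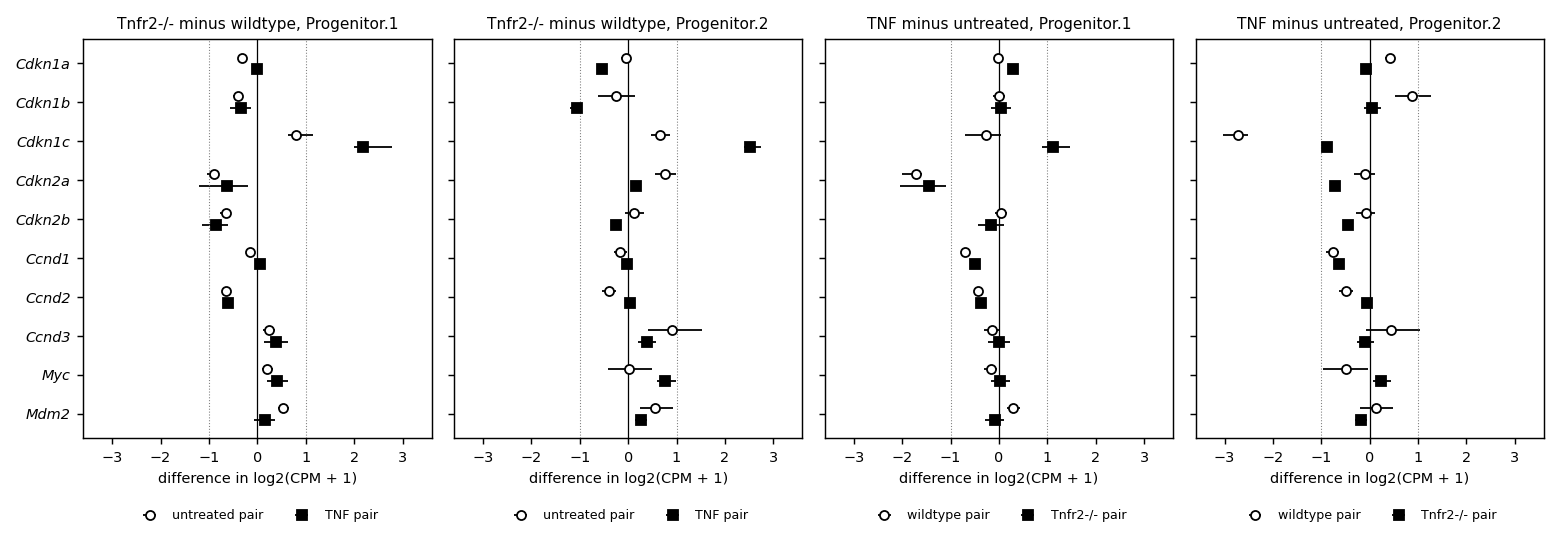
Difference in log2(CPM + 1) for each member between genotypes (left pair of panels, open for the untreated pair and filled for the TNF pair) and between TNF and no treatment (right pair of panels, open for wildtype and filled for Tnfr2-/-) within Progenitor.1 and Progenitor.2, with bars for 95% counting intervals and dotted lines at a 2-fold difference. Cdkn2a with TNF in Progenitor.1 is the only member past 2-fold the same way in both pairs of a panel, and Ccnd1 lies left of 0 in both TNF panels.

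The partners and targets of the members were followed with 127 genes in 10 lists. Between the progenitor classes, 117 of them reached the minimum, and 4 were at least 2-fold higher in Progenitor.2 in all 4 libraries and 43 lower, where 5.78% and 9.02% of all genes tested were. All 7 genes listed for S phase and mitosis were lower (kinases, cyclins and the phosphatases Cdc25b and Cdc25c). Among them were Ccna2 (69.0, 54.0, 68.2 and 60.5 CPM in Progenitor.1 against 0, 0.631, 0.807 and 1.63 CPM) and Cdk1, the mitotic kinase (log2 -4.07, -3.83, -3.88 and -4.32). Of 6 genes listed for G1 and S phase (kinases, cyclins and the phosphatase Cdc25a), Cdk4 (-2.37, -2.13, -1.41 and -1.75), the partner of the D cyclins and target of the INK4 inhibitors, and Cdk2 (-1.21, -1.73, -1.48 and -1.57) were lower. Of 12 genes of the RB and E2F list 5 were lower, among them E2f8 (16.1, 13.0, 14.7 and 17.0 CPM in Progenitor.1 against 0, 1.02, 0.908 and 1.19 CPM), and of 12 genes that control the turnover of inhibitors and cyclins 4 were lower. These were Skp2, which targets p27 for destruction (7.56, 8.49, 9.45 and 9.75 CPM in Progenitor.1 against 1.19, 0.709, 1.61 and 1.42 CPM), its cofactor Cks1b, Cks2 and Dtl. Of 2 other CDK inhibitors, the INK4 gene Cdkn2c was lower (9.05, 6.84, 9.18 and 11.5 CPM in Progenitor.1 against 0.596, from 1 UMI, 0.631, 1.31 and 0.800 CPM), the opposite of Cdkn2a and Cdkn2b.

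Of 25 Myc targets, many of them for building ribosomes, 17 were lower in Progenitor.2 and 0 higher. The 17 include Cad (-2.06, -2.35, -2.21 and -2.21), the first enzyme of pyrimidine synthesis. Of 9 Myc partners and antagonists, Mxd1, the antagonist that shares the partner Max, was higher (3.64, 4.42, 3.28 and 3.61). Of 8 genes that encode p53 or control it, 5 were lower, led by the checkpoint kinase Chek1 (-2.01, -2.75, -3.17 and -3.62). Trp53 itself, named after its values were seen, was lower as well (-1.30, -1.72, -1.09 and -1.38). Of 26 other p53 targets 3 were higher and 0 lower. The 3 were Plk3 (3.02, 2.10, 1.94 and 2.28), Rap2b (2.07, 1.52, 1.73 and 1.89) and Pmaip1 (2.28, 1.28, 1.85 and 1.59), which encodes the death factor Noxa. Of 10 Wnt targets, the stem cell genes Lgr5 and Ascl2 were lower and the other 8 passed in neither direction.

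In Progenitor.1 no list gene was at least 2-fold different one way in both pairs, among 120 tested by genotype (against 0.505% of all genes higher and 1.02% lower) and 119 by TNF (against 0.38% and 0.326%), so 0 is near the share over all genes. In Progenitor.2, 4 of 9 Wnt targets were higher in Tnfr2-/-, against 1.72% of all genes. These were Axin2 (log2 2.46 and 1.86), Ephb3 (1.32 and 1.66), Lgr5 and Ascl2. Lgr5 was at 22.4 and 39.5 CPM in Tnfr2-/- against 0 and 5.83 CPM in wildtype, and Ascl2 at 6.36 and 14.0 CPM against 0 and 2.84 CPM. With TNF, Mycl, a relative of Myc, was the 1 list gene of 93 tested that was higher in Progenitor.2, against 0.556% of all genes. It went from 0.596 CPM, which is 1 UMI, to 12.2 CPM in wildtype and from 3.53 to 8.45 CPM in Tnfr2-/-.

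The genes whose levels most resembled a member's were ranked by Pearson correlation of log2(CPM + 1) over 19 sums of an epithelial class in a library, among 8942 genes. The sums share libraries and depth, and the ranks are a description. Closest to Cdkn2a were Ifi204 (r = 0.91), Clu (0.90) and Cryab (0.90), and closest to Cdkn2b were Pax8 (0.95), Sat1 (0.95) and Sprr1a (0.94). Cdkn1a was closest to Pdgfa (0.88), Cdkn1b to Mtch1 (0.91) and Cdkn1c to Apob (0.91). Mdm2 was closest to Sh3bp4 (0.96), Ccnd1 to Cavin1 (0.92), Ccnd2 to Rab25 (0.90) and Myc to Psme3 (0.91). Ccnd3 had no gene above 0.81 (Pdcd11).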

How the data were processed

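Distal colon organoids were profiled by 10x 3′ single-cell RNA-seq in 4 libraries, 1 per group. Per the labels, the submitters' processing notes name Cell Ranger 5.0.0 and the genome build mm10. The authors deposited UMI counts per gene and cell, not normalized, as 1 matrix of 30360 genes by 6155 cells, after removing cells under 100 UMIs. Their methods describe filtering out both mesenchymal clusters and epithelial-mesenchymal doublets. The deposited matrix still holds the mesenchymal classes, so it is not known whether it is free of those doublets. No doublet caller was run here. The other deposited columns used give each cell's library and class, and the authors made the classes by Leiden clustering in monocle3. The 35 cells with no class were left out of class values, and the lowest cell held 894 UMIs.

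Library totals were 44547639 to 87228093 UMIs. UMIs were summed per class and library and divided by the sum's total to give CPM, with exact 95% Poisson intervals, and differences were taken on log2(CPM + 1). Sums of fewer than 20 cells were not used. A gene reached the minimum with at least 5 CPM on 1 side of every pair compared, and was counted as higher or lower at 2-fold or more one way in every pair. Shares of cells were counted after thinning each cell to 5000 UMIs, which left out 405 shallower cells. Intervals cover counting error and neither the spread between cells nor that between cultures, and with 1 library per group no p-value was computed. Splits by Mki67 used the thinned counts, and splits by Cdkn2a used thinned counts to place the cells and all UMIs for the levels. The split by Cdkn2a and the spread over cells were chosen after the values were seen. All 10 members were named, genes of a list by the largest of their smallest differences among those counted (at most 4 a list), and for likeness the 3 genes with the highest correlation. The members and lists were chosen with earlier results of these data known.

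Positions are from GENCODE vM21 (GRCm38) and promoter windows from RefSeq. Alternatives were other pseudocounts and minimums, TMM and median-of-ratios factors from edgeR 4.0.16 in R 4.3.3, means over cells, subsets of cells, other thinning depths, and leaving out each library in turn. Scripts ran in Python 3.11.15 with numpy 2.4.6, scipy 1.17.1 and pandas 2.3.3, and the counting rule was tested on simulated data.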

Additional observations from a re-analysis of the deposited data

Results flagged for a closer look

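TNF was set against no treatment in Progenitor.2 cells of each genotype, and for Cdkn1a and Myc the wildtype and Tnfr2-/- pairs ran in opposite directions. Cdkn1a was higher with TNF in wildtype by 0.41 on the log2 scale and differed by -0.078 in Tnfr2-/-. The Tnfr2-/- value became 0.07 with TMM factors and 0.05 with median-of-ratios factors, so the opposite signs depend on the scaling. Myc differed by -0.49 in wildtype, from 29.2 to 20.4 CPM, and by 0.24 in Tnfr2-/-, from 29.8 to 35.2 CPM. With 1 library per group, neither difference between the genotypes was tested.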

How the results depend on the processing

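The 4 members higher in Progenitor.2 became 3 when every cell was weighted alike. Leaving out each library in turn gave 4 to 4 higher and 0 to 0 lower. These counts could rise but not fall, because the rule asks for every library that is kept. The 1 member lower with TNF in Progenitor.1, Cdkn2a, became 0 with a pseudocount of 10 CPM (log2 -1.25 and -0.89) and 0 when every cell was weighted alike (-1.58 and -0.95). No member was higher in Tnfr2-/- Progenitor.2 as reported, but 1, Cdkn1c, was with cells of at least 10000 UMIs (1.19 and 2.52) and 1 with cells free of mesenchymal marker UMIs (1.04 and 2.46), an alternative chosen after seeing the data. A share of cells with a UMI was counted as higher or lower where the classes' exact binomial intervals did not overlap in any library. At 5000 UMIs this share was higher in Progenitor.2 for 2 members and lower for 0. Without thinning it was higher for 0 and lower for 3, and at 10000 UMIs higher for 1 and lower for 1. The cause of this change with depth was not tested. The same count was not made over all genes, so these counts do not show whether the members were unusual. TMM or median-of-ratios factors changed the sign of 15 of 120 member values, none larger than 0.21 on the log2 scale, and of the 23 values of at least 2-fold none changed sign under any of the 10 settings tried on them.

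No paired analysis was possible because each group has 1 library. Low counts limit the Tnfr2-/- TNF Progenitor.1 values (95 cells) and the wildtype untreated Progenitor.2 values (62 cells).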
